A study of Mus musculus with 2 samples.

Results

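The cholesterol and fatty acid synthesis genes examined here are 30 genes of the 32285 in the count tables. They were chosen by symbol for their role and not for their level in these cells, but with earlier results of these data known. They comprise 7 genes of the mevalonate steps, 11 of the steps from squalene to cholesterol, 5 that control or move sterols and 7 of fatty acid synthesis and desaturation. All 30 had UMIs (unique molecular identifiers, 1 for each captured mRNA molecule) in both libraries. The libraries were single-cell 3′ RNA libraries of live CD45.2+ CD11c+ cells sorted from spleen after magnetic enrichment on CD11c. The first came from WT mice (H2-Aa +/+). The other, called mutant below, came from H2-Aa cit/cit mice, which are homozygous for the chemically induced citation allele of the gene for an MHC class II alpha chain. Each library pooled 3 naive female mice, 4 months old by the labels, and the allele was present in every cell of the mouse, not in DC alone. With 1 library per genotype there was no replicate check and no test, so genotype, mouse pool and library cannot be told apart, and every interval given here covers counting error only.

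Cells make cholesterol from acetyl-CoA through mevalonate, farnesyl diphosphate, squalene and lanosterol. The transcription factor SREBP2, encoded by Srebf2, is held in the endoplasmic reticulum with its escort SCAP by INSIG proteins when sterols are plentiful and is released to turn on the enzyme genes when they are scarce, while SREBP1, encoded by Srebf1, acts mainly on fatty acid synthesis. Liver X receptors sense oxidized sterols and turn on export genes such as Abcg1.

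The WT library held 7814 cells and 51020804 UMIs, and the mutant library 11525 cells and 72652201 UMIs, with 31 cell barcodes found in both. H2-Aa itself was at 5410 CPM (UMIs of a gene per 1000000 UMIs of the class) in WT and 66.2 CPM in mutant cells. Cells in which ribosomal protein genes gave under 10% of UMIs were 46.0% of the WT and 30.8% of the mutant library. Cells were put into classes by the number of marker genes with a UMI. The classes were cDC2-like (3023 WT and 6446 mutant cells), cDC1-like (466 and 553), mature DC-like (2112 and 1358), proliferating (311 and 625), pDC-like (115 and 128) and monocyte-like cells (106 and 124). The 12 cDC1 markers, such as Xcr1 and Clec9a, summed to 4793 and 3611 CPM in cDC1-like cells of the WT and mutant libraries against 114 and 95.5 CPM in cDC2-like cells, and the 12 cDC2 markers to 1957 and 1984 CPM in cDC2-like cells against 206 and 192 CPM in cDC1-like cells.

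Summed over all cells, the 30 genes were nearly level between the genotypes. They held 33777 UMIs in WT (662 CPM, 95% Poisson interval 655 to 669) and 45907 UMIs in mutant cells (632 CPM, 626 to 638), a log2 ratio of mutant over WT of −0.07 (95% interval −0.09 to −0.05). Of the 20 members with at least 10 CPM in either library, 2 were higher and 2 lower by a log2 ratio of at least 0.5, against 4.87% and 9.2% of the 8829 genes at that level. Their median log2 ratio was −0.10, and that of all genes at that level was 0.02. Sqle, 1 of the 2 lower, reached 10 CPM in WT alone and could count only as lower.

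Single enzymes differed in both directions under that flat sum. Idi1, the isomerase that follows mevalonate decarboxylation, stood at 31.2 CPM in WT and 15.2 CPM in mutant cells (log2 ratio −1.04, −1.15 to −0.92). Sqle, squalene epoxidase, was at 12.5 and 8.82 CPM (−0.50), and Hmgcs1, the cytosolic HMG-CoA synthase, at 44.0 and 32.0 CPM (−0.46). Fdft1, squalene synthase, and Sc5d, a late sterol desaturase, were lower by less, with log2 ratios of −0.27 and −0.26. Elovl6, which lengthens saturated fatty acids, stood at 11.4 CPM in WT and 18.7 CPM in mutant cells (0.71, 0.57 to 0.85). Mvd, mevalonate diphosphate decarboxylase, was at 10.0 and 14.8 CPM (0.56). Ebp, a sterol isomerase, had a log2 ratio of 0.46, Fdps, farnesyl diphosphate synthase, 0.36, and Fasn, fatty acid synthase, 0.30. The class mix differed between the libraries: mature DC-like cells were 27.0% of WT and 11.8% of mutant cells, and cDC2-like cells 38.7% and 55.9%. With the WT class mix given to both libraries the log2 ratio of Idi1 was −0.60, that of Hmgcs1 −0.26 and that of the summed genes −0.015.

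The clearest difference between the genotypes was in cDC1-like cells, the DC known for cross-presenting antigen to CD8 T cells. There the 30 genes summed to 543 CPM in WT (523 to 564, 2738 UMIs) and 737 CPM in mutant cells (718 to 757, 5665 UMIs), a log2 ratio of 0.44 (0.37 to 0.51). Without Fdps, which had the largest number of added UMIs, the ratio of the sum was 0.29. In all, 19 members had at least 10 CPM in either library, 15 of them in both. Of the 19, 8 were higher by a log2 ratio of at least 0.5 and none was lower by as much, where 13% and 11.6% of the 8058 genes at that level passed the same limits. The 4 that reached 10 CPM in 1 library alone were Mvd, Sqle, Insig1 and Fdft1, all in the mutant library. They could pass only by being higher there, so this count and the median of the 19 are a description.

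As a sum, the mevalonate steps differed most in cDC1-like cells, but Fdps held much of the added level. Their summed level was 121 CPM in WT and 236 CPM in mutant cells (log2 ratio 0.96, 0.83 to 1.10), of which Fdps was 39.9 and 124 CPM. The ratio of these steps without Fdps was not computed, so their rank among the groups may rest on that gene. Mvd stood at 5.36 CPM in WT (27 UMIs) and 21.2 CPM in mutant cells (163 UMIs), a log2 ratio of 1.99 (1.39 to 2.63). Fdps stood at 39.9 CPM in WT (34.6 to 45.8) and 124 CPM in mutant cells (116 to 132), a log2 ratio of 1.63 (1.41 to 1.86). Neither pair of intervals overlapped. Hmgcs1 was at 18.4 and 27.3 CPM (0.57, 0.21 to 0.93) and Mvk, mevalonate kinase, at 4.36 and 8.46 CPM (0.95, 0.24 to 1.72). Pmvk, phosphomevalonate kinase, stood at 40.3 and 41.8 CPM, and Idi1 at 7.54 and 9.63 CPM with an interval from −0.23 to 0.96. Acat2, which joins acetyl-CoA units at the start of the pathway, had 26 and 27 UMIs, and its value is uncertain because it has a near-identical neighbour, Acat3.

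The steps from squalene to cholesterol summed to 127 CPM in WT and 187 CPM in mutant cDC1-like cells (0.57, 0.43 to 0.70). Msmo1, which oxidizes sterol methyl groups, was at 11.3 and 23.3 CPM (1.04, 0.61 to 1.50), and Ebp at 42.3 and 73.0 CPM (0.79, 0.56 to 1.02). Sqle was at 6.35 and 10.4 CPM (0.71, 0.11 to 1.35), but at −0.52 on 2 and 1 UMIs when each cell was thinned to 1500 UMIs before gating. When thinned in that way, Msmo1 had 1.70 on 3 and 7 UMIs and Ebp 0.48 on 15 and 15 UMIs. Cyp51, lanosterol demethylase, was at 22.2 and 28.9 CPM (0.38, 0.04 to 0.72). For Fdft1 (0.44), Sc5d (0.40) and Nsdhl, a sterol dehydrogenase (−0.31), the intervals held 0. The remaining enzymes of these steps each had at most 27 UMIs per library in this class, and their intervals held 0. Their log2 ratios were 0.34 for Lss, 1.15 for Tm7sf2, 0.07 for Hsd17b7 and 0.65 for Dhcr7. Under the alternatives with a UMI in both libraries, Tm7sf2 ranged from 1.04 to 2.60, Lss and Dhcr7 stayed above 0, and Hsd17b7 ranged from −0.79 to 0.71. Tm7sf2 also shares exon sequence on the same strand with Vps51.

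**Figure D1:**
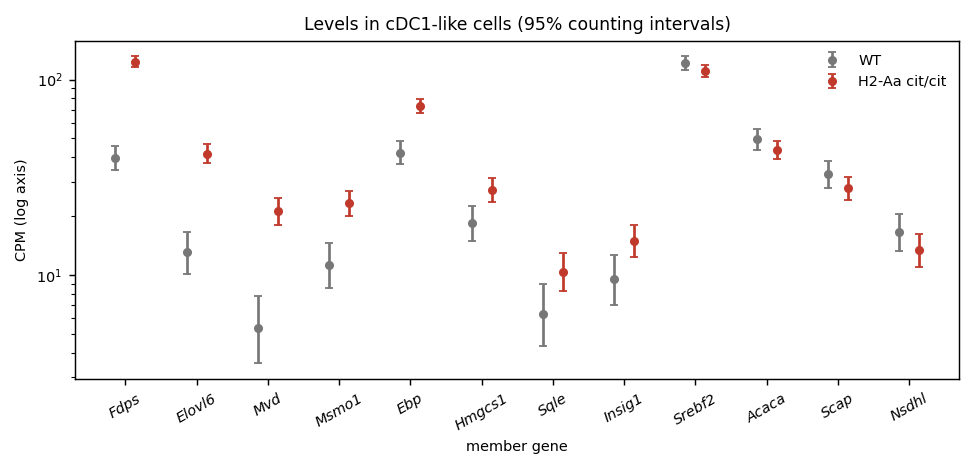
Levels in cDC1-like cells of 12 members in CPM on a log axis, with points for the WT (grey) and H2-Aa cit/cit (red) libraries and bars for 95% counting intervals. Fdps is at 39.9 and 124 CPM, Elovl6 at 13.1 and 41.8 CPM and Mvd at 5.36 and 21.2 CPM, while Srebf2, Acaca, Scap and Nsdhl are slightly lower in H2-Aa cit/cit cells with overlapping intervals.

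Of the 5 genes that control the pathway or move sterols, Insig1 alone had an interval above 0 in cDC1-like cells. Srebf2 stood at 121 CPM in WT and 110 CPM in mutant cells (−0.14, −0.29 to 0.02), and Scap at 32.7 and 27.7 CPM (−0.24, −0.54 to 0.06). Srebf1 was at 9.92 and 8.20 CPM (−0.27, −0.83 to 0.29). Insig1, itself a target of SREBP2, was at 9.52 and 15.0 CPM (0.65, 0.15 to 1.17), but its log2 ratio was −0.11, on 3 and 2 UMIs, when cells were thinned to 1500 UMIs before gating. Stard4, which carries sterols between membranes, was at 9.13 and 9.89 CPM (0.12). The sum of the 5 was 183 CPM in WT and 171 CPM in mutant cells (−0.09, −0.22 to 0.03).

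Among the fatty acid genes, the elongase differed most. Elovl6 stood at 13.1 CPM in WT (66 UMIs) and 41.8 CPM in mutant cDC1-like cells (321 UMIs), a log2 ratio of 1.67 (1.29 to 2.08). Fasn was at 19.8 and 26.7 CPM (0.43, 0.08 to 0.79). Acaca, the acetyl-CoA carboxylase that supplies Fasn, was at 49.6 and 43.6 CPM (−0.19, −0.43 to 0.06), so both steps before Elovl6 differed by less than Elovl6 itself. The desaturases showed little: Scd2 was at 17.3 and 16.3 CPM (−0.09), Fads1 at 10.9 and 13.3 CPM (0.28), Scd1 had 10 and 6 UMIs and Fads2 had 2 and 7.

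**Figure D2:**
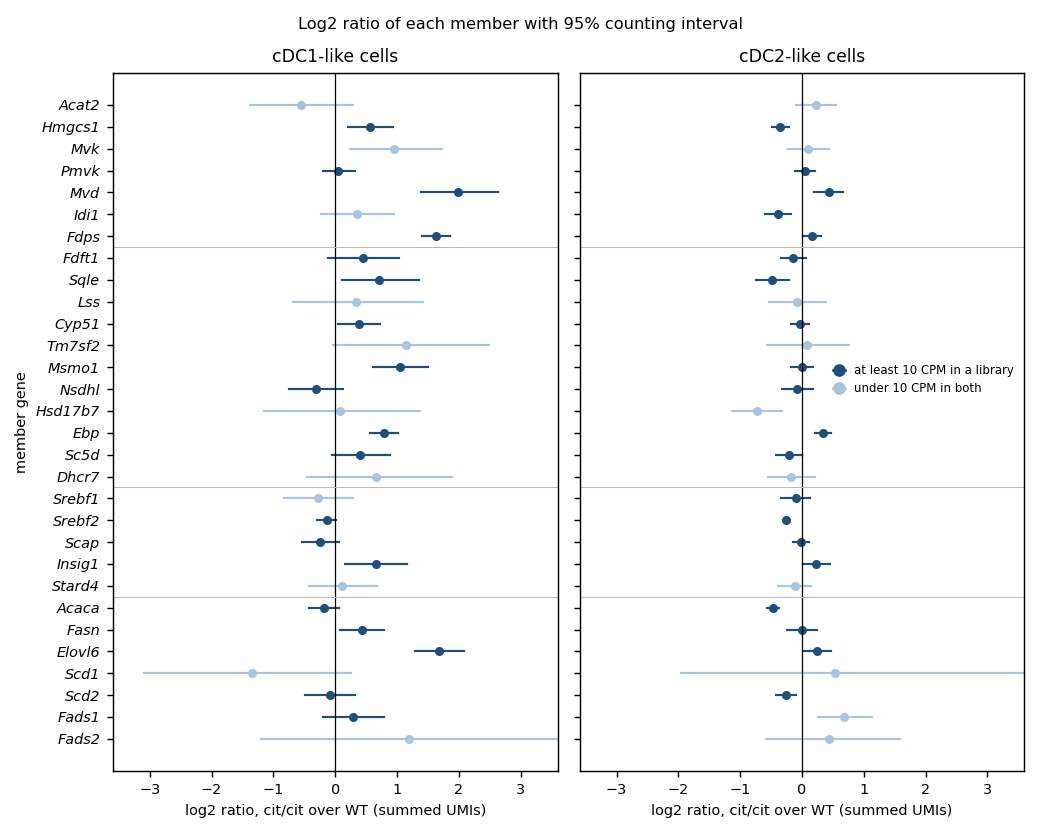
Log2 ratio of H2-Aa cit/cit over WT for each of the 30 members in cDC1-like (left) and cDC2-like cells (right), with 95% counting intervals, drawn up to the frame, and grey lines between the 4 groups of genes. Mvd, Fdps and Elovl6 lie at 1.99, 1.63 and 1.67 on the left and at 0.43, 0.16 and 0.24 on the right; pale points are under 10 CPM in both libraries.

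The shares of cells with a UMI for Fdps, Elovl6 and Mvd were also higher in mutant cDC1-like cells once depth was made equal. The median cDC1-like cell had 8808 UMIs in WT and 14173 in the mutant library, so each cell was thinned to 1500 UMIs and 5 and 2 shallower cells were left out. Of 461 thinned WT cells 31 held Fdps (6.72%, exact Clopper-Pearson 95% interval 4.61 to 9.41) as did 84 of 551 mutant cells (15.2%, 12.3 to 18.5). Elovl6 was found in 13 (2.82%, 1.51 to 4.77) and 42 cells (7.62%, 5.55 to 10.2), and Mvd in 4 (0.868%, 0.237 to 2.21) and 20 cells (3.63%, 2.23 to 5.55). Insig1 was in 7 cells of each library (1.52%, 0.613 to 3.10, and 1.27%, 0.512 to 2.60), and Sqle in 2 (0.434%, 0.0526 to 1.56) and 11 cells (2.0%, 1.0 to 3.54). Without thinning the shares for Fdps were 26.2% and 66.2%. In thinned cDC2-like cells Fdps was detected in 3.23% of WT and 3.82% of mutant cells.

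The sum over the 30 genes was higher in mutant cDC1-like cells at each depth: 455 and 883 CPM in cells under 5000 UMIs (117 and 48 cells), 557 and 765 CPM from 5000 to 15000 UMIs (216 and 265 cells), and 547 and 713 CPM above that (133 and 240 cells). Other genes differed in this class too. Of the 14 markers of mature DC, 11 were lower in mutant cDC1-like cells and Ramp3 was at 0 in both, and their sum was 693 and 208 CPM, of which Apol7c was 463 and 38.0 CPM and Serpinb6b 139 and 75.7 CPM. The 12 cDC1 markers summed to 4793 and 3611 CPM, with 9 lower and none at 0. The 8 plasma cell markers summed to 73.2 and 258 CPM through Derl3 (1.39 and 147 CPM) and Xbp1 (67.1 and 109 CPM), which serve the endoplasmic reticulum, while Sdc1 was at 0 in both libraries and Jchain and Igkc were at or under 2.38 CPM. In cDC1-like cells with at most 1 mature DC marker (154 and 315 cells, median 6097 and 12527 UMIs), where the mature list summed to 183 and 94.9 CPM, Fdps was at 47.7 and 142 CPM, Mvd at 7.34 and 24.7 CPM and Elovl6 at 24.9 and 41.0 CPM. In those cells the log2 ratio of Elovl6 was 0.72 in place of 1.67, and that of the summed genes 0.34. The part of Derl3, Xbp1 and the cDC1 markers in these values was not tested.

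Promoters are shown for Mvd, Elovl6, Msmo1 and Ebp, which had the highest ratios in cDC1-like cells among members with at least 10 CPM and a window, for Hmgcs1, which held a sterol regulatory element, and for Idi1, which was lower over all cells. RefSeq promoter windows on GRCm38.p6 were at hand for 23 of the 30 members, in 29 windows. The 250 bases before each start are given, 5′ to 3′ on the gene's strand. Capitals mark matches on either strand to TCACNCCAC, a form of the sterol regulatory element, to CCAAT, the NF-Y motif, and to GGGCGG, the Sp1 motif; none of the marked matches overlaps another.
Hmgcs1 (chr13:119690101-119690350, plus strand): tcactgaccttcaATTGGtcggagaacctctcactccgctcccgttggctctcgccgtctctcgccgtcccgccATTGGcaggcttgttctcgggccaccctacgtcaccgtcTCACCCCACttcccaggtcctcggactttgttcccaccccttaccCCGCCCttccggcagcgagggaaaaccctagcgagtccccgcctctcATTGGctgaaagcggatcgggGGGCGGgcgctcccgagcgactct
Idi1 (chr13:8885356-8885605, plus strand): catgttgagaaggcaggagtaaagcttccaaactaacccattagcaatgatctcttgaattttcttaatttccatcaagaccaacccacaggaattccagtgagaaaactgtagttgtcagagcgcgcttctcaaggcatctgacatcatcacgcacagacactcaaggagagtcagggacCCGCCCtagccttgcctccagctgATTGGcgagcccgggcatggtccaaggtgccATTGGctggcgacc
Mvd (chr8:122443423-122443672, minus strand): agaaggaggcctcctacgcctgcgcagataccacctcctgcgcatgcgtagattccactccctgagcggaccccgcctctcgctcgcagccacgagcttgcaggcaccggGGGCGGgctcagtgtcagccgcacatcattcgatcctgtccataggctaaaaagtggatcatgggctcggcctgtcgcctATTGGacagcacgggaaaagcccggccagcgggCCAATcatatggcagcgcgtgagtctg
Msmo1 (chr8:64733579-64733828, minus strand): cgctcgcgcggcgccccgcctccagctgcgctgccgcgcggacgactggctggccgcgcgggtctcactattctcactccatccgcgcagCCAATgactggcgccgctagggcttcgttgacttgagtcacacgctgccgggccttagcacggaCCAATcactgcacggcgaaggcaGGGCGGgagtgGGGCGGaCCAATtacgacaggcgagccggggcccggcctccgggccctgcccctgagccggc
Ebp (chrX:8193513-8193762, minus strand): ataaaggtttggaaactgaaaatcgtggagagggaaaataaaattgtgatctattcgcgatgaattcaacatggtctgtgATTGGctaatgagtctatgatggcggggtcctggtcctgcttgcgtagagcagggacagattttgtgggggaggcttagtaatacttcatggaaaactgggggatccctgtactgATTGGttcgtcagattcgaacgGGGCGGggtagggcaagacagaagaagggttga
Elovl6 (chr3:129532136-129532385, plus strand): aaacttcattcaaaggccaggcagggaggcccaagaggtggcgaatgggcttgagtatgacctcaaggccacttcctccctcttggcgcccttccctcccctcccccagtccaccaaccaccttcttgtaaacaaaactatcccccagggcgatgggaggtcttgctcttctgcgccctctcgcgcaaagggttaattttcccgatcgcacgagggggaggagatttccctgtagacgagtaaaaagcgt
Hmgcs1 was the only one of the 23 members with TCACNCCAC in its window, at base 114 counted from the 5′ end. The motif was in 1.05% of all 32851 windows of this length. CCAAT was in 18 of 23 members (65.5% of their windows, 33.8% of all windows) and GGGCGG in 19 of 23 (72.4% of their windows, 32.7% of all windows). Mvd, Msmo1 and Ebp, which were higher in mutant cDC1-like cells, and Idi1, whose interval there held 0, each had CCAAT and GGGCGG, whereas the Elovl6 window had none of the 3. Each match is a string of letters, not a bound site.

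In WT mice cDC2 are known for presenting antigen on MHC class II to CD4 T cells. The paper detected no MHC class II complex in H2-Aa cit/cit splenocytes. In its co-cultures H2-Aa cit/cit cDC2 drove more CD8 T cell division than WT cDC2, and cDC1 did not differ by genotype. In cDC2-like cells, the most numerous class, the 30 genes differed little. Their sum was 630 CPM in WT (619 to 642) and 583 CPM in mutant cells (576 to 591), a log2 ratio of −0.11 (−0.14 to −0.08). None of the 20 members with at least 10 CPM passed a log2 ratio of 0.5 in either direction, where 2.97% of 8566 genes were higher and 3.89% lower. The median of the 20 was −0.06 and that of all genes −0.05.

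The lowest ratios in cDC2-like cells among members with at least 10 CPM were those of Sqle, at 10.5 CPM in WT and 7.52 CPM in mutant cells (−0.48, −0.74 to −0.22), and of Acaca, at 64.2 and 46.4 CPM (−0.47, −0.57 to −0.37). Idi1 (−0.39), Hmgcs1 (−0.35) and Scd2 (−0.26) were lower as well, and Srebf2 was at 165 and 139 CPM (−0.25, −0.31 to −0.19). Mvd, at 10.8 and 14.6 CPM (0.43, 0.20 to 0.67), and Ebp, at 33.6 and 42.6 CPM (0.34, 0.21 to 0.47), were higher. Elovl6 (0.24), Insig1 (0.23) and Fdps (0.16) were higher by less. Among members under 10 CPM, Fads1, a fatty acid desaturase, had a log2 ratio of 0.69 and Hsd17b7, a sterol ketone reductase, −0.73. When cells with under 10% ribosomal UMIs were left out, the log2 ratio of Fdps was −0.01 and that of Acaca −0.29.

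Several enzymes had different ratios in the cDC1-like and cDC2-like classes. The log2 ratio in cDC1-like cells minus that in cDC2-like cells was 1.55 for Mvd (counting interval 0.92 to 2.18), 1.47 for Fdps (1.21 to 1.73), 1.43 for Elovl6 (0.99 to 1.87) and 1.04 for Msmo1 (0.58 to 1.50). Sqle (1.19) and Hmgcs1 (0.92) were higher in mutant cells in the first class and lower in the second. In cDC1-like cells thinned before gating, Sqle had a log2 ratio of −0.52, as given above, but on 2 and 1 UMIs, too few to decide its sign. For Pmvk the difference was 0.01 (−0.29 to 0.31) and for Srebf2 0.12 (−0.05 to 0.28). For the 30 genes summed it was 0.55 (0.48 to 0.63). No test across mice could be made of it.

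**Figure D3:**
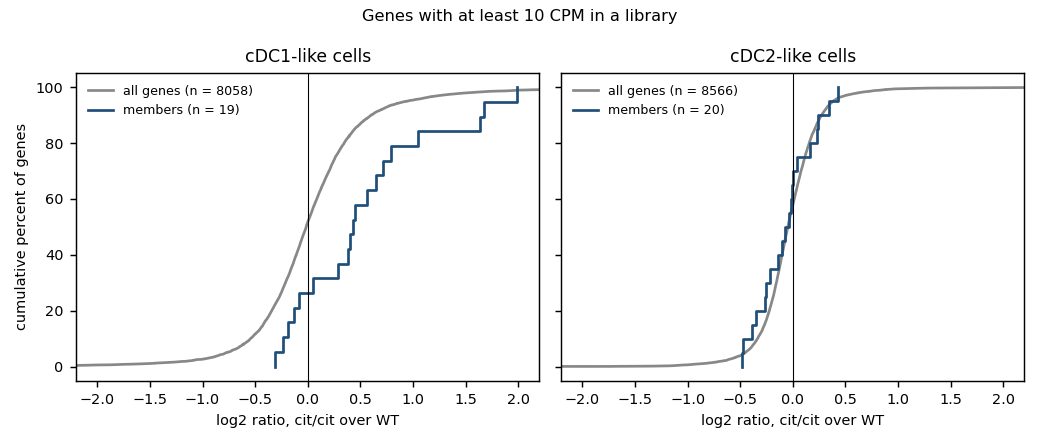
Cumulative percent of genes by log2 ratio of H2-Aa cit/cit over WT, for genes with at least 10 CPM in a library, in cDC1-like (left) and cDC2-like cells (right). The 19 members with that level lie to the right of all 8058 genes in cDC1-like cells (medians 0.43 and −0.02), and the 20 members follow the 8566 genes in cDC2-like cells (medians −0.06 and −0.05). In cDC1-like cells Mvd, Sqle, Insig1 and Fdft1 reached that level in the H2-Aa cit/cit library alone and could lie only to the right of 0. The position of the members there is therefore a description.

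Summed, these genes stood lower in cDC1-like than in cDC2-like cells of the WT library and higher in those of the mutant library. The log2 ratio of the sum in cDC1-like over cDC2-like cells was −0.21 (−0.28 to −0.16) in WT and 0.34 (0.30 to 0.38) in mutant cells. For Mvd it was −1.01 and 0.54, for Sqle −0.72 and 0.47, and for Fdps 0.38 and 1.85. For Msmo1 it was −0.84 and 0.20, the latter with an interval that held 0 (−0.04 to 0.44). Not all members followed the sum. Fasn was higher in cDC1-like cells of both libraries (0.86 and 1.29), as were Fads1 (1.85 and 1.45) and Pmvk (0.73 and 0.74). Srebf2 (−0.45 and −0.33) and Scd2 (−0.62 and −0.44) were lower in cDC1-like cells of both.

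The Ccr2+ subset of cDC2-like cells (169 and 422 cells), chosen by a Ccr2 UMI and at least 8 of 12 markers, had sums of 674 and 675 CPM, a log2 ratio of 0.00 (−0.10 to 0.10). Fdps was at 50.4 and 73.1 CPM (0.54, 0.19 to 0.89) which was the highest ratio of the 21 members with at least 10 CPM. Elovl6 (0.45) and Cyp51 (0.25) followed, with intervals that held 0. Srebf1 (−0.67, −1.45 to 0.12), Hmgcs1 (−0.46, −0.87 to −0.05) and Acaca (−0.28) had the lowest ratios. There, 1 member was past 0.5 in each direction, against 6.95% and 6.45% of 8444 genes. The lower one, Srebf1, reached 10 CPM in WT alone and could count only as lower.

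Mature DC-like cells, which carry Ccr7 and migrate to T cell zones, had sums of 708 CPM in WT (695 to 721) and 699 CPM in mutant cells (682 to 717), a log2 ratio of −0.02 (−0.06 to 0.03). Of 17 members with at least 10 CPM none was higher and 1 was lower by a log2 ratio of 0.5, against 11% and 6.3% of 8487 genes. That member was Idi1, at 60.7 and 38.8 CPM (−0.64, −0.83 to −0.46). Sqle (−0.47) and Nsdhl (−0.32) came next, and Ebp (0.43), Mvd (0.42) and Scap (0.38) had the highest ratios.

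The lower Idi1 level of mature DC-like cells was not seen in those without a cDC1 marker. In the 1331 WT and 1074 mutant mature DC-like cells with no cDC1 marker, Idi1 was at 39.6 and 41.4 CPM (0.06, −0.18 to 0.31) and Hmgcs1 at 50.4 and 51.5 CPM (0.03). There the summed genes had a log2 ratio of 0.15 (0.09 to 0.21). In the 159 and 28 mature DC-like cells with at least 3 cDC1 markers, Idi1 was at 62.0 and 20.6 CPM (−1.59, −2.62 to −0.71), Hmgcs1 at 82.5 and 39.3 CPM (−1.07, −1.79 to −0.42) and Sqle at 27.8 and 11.2 CPM (−1.31, −2.81 to −0.11). Elovl6 went the other way in those cells, at 5.56 and 20.6 CPM (1.89, 0.59 to 3.16), but rests on 13 and 11 UMIs. The cells of this subset were not alike in the libraries, since mature DC markers summed to 7992 CPM in WT and 2065 CPM in mutant cells, cDC2 markers to 163 and 653 CPM and proliferation markers to 68.4 and 487 CPM. The part of these differences in the ratios was not tested. The cDC1 markers summed to 360 CPM in WT and 190 CPM in mutant cells over the whole mature class. The part of this mix in the class's Idi1 value was not tested beyond the subsets given. Mature DC-like cells with a cDC1 marker but fewer than 3 were not summed on their own, so these subsets do not make up the whole class. How much of the lower Idi1 level lay in those cells was not computed. The split also followed depth. Median UMIs in WT and mutant cells were 5976 and 4900.5 with no cDC1 marker, and 14110 and 17872.5 with at least 3. Cells under 10% ribosomal share were 63.9% and 48.0% of the former and 32.7% and 7.14% of the latter.

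Several sterol enzymes were higher in mature DC-like than in cDC2-like cells of both libraries, and several fatty acid enzymes lower. The log2 ratio of mature DC-like over cDC2-like cells was 1.93 in WT and 1.67 in mutant cells for Idi1, 0.97 and 1.21 for Cyp51, 0.77 and 0.89 for Msmo1 and 0.75 and 0.87 for Hmgcs1, whereas Ebp was lower (−0.56 and −0.46). For Elovl6 it was −1.58 and −0.65, for Fasn −1.25 and −0.46 and for Scd2 −0.99 and −0.45. Scd1, stearoyl-CoA desaturase, had 22 UMIs in WT and 1 in mutant mature DC-like cells (log2 ratio −3.53, −8.90 to −0.90), and over all cells 52 and 19 UMIs with at most 2 in any cell. Of the 22, 12 were in WT cells with at least 3 cDC1 markers.

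**Figure D4:**
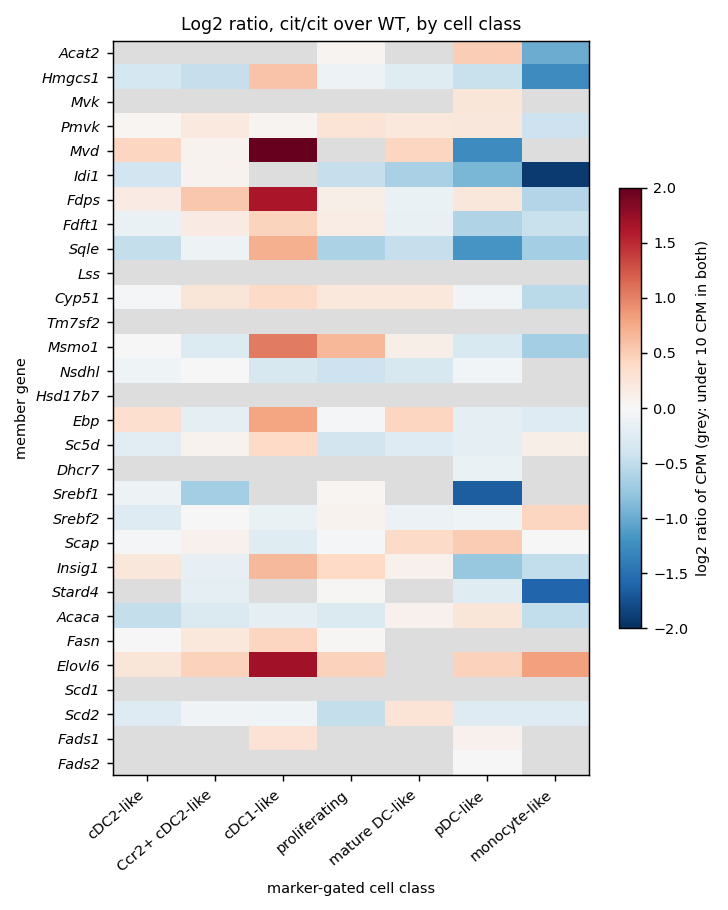
Log2 ratio of H2-Aa cit/cit over WT (color, from −2 to 2) for each member (rows) in 7 cell classes (columns), with members under 10 CPM in both libraries in grey. The cDC1-like column holds the darkest red cells, Mvd at 1.99, Elovl6 at 1.67 and Fdps at 1.63, and Idi1 is blue in cDC2-like, proliferating, mature DC-like, pDC-like and monocyte-like cells.

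Proliferating cells had sums of 675 CPM in WT (647 to 703) and 665 CPM in mutant cells (645 to 686), a log2 ratio of −0.02 (−0.09 to 0.05). Of 21 members with at least 10 CPM, Msmo1 was higher at 10.7 and 17.0 CPM (0.66, 0.11 to 1.24) and Sqle lower at 14.5 and 9.36 CPM (−0.63, −1.20 to −0.06), where 5.31% and 4.72% of 8733 genes passed 0.5. Sqle reached 10 CPM in WT alone there and could count only as lower. Elovl6 (0.46) and Insig1 (0.40) had the next highest ratios, with intervals that held 0, and Scd2 (−0.47) and Idi1 (−0.46) the next lowest. The cDC1 markers summed to 1494 and 798 CPM in this class. In the 72 and 75 proliferating cells that also passed the cDC1 gate the summed genes had a log2 ratio of 0.15 (0.02 to 0.28), with Fdps at 76.4 and 118 CPM (0.62, 0.25 to 1.0) and Msmo1 at 4.77 and 21.3 CPM on 6 and 30 UMIs, and in the other proliferating cells the sum had −0.04 (−0.14 to 0.05).

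The highest levels of most members were in pDC-like cells, the class with secretory machinery for type I interferon. Across the 6 classes, pDC-like cells ranked first for 21 of the 30 members in WT, for 18 in the mutant library and for 16 in both. For 7 of those 16 the interval lay apart from that of the next class in each library: Pmvk, Sc5d, Dhcr7, Scap, Insig1, Elovl6 and Fads2. For the other 9, the intervals of first and second place overlapped in at least 1 library, and their ratio was not computed. The summed genes were at 1105 CPM in WT and 1029 CPM in mutant pDC-like cells, 1.75 and 1.76 times the level in cDC2-like cells.

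Fads2, the first desaturase of polyunsaturated fatty acid synthesis, had the largest ratio of pDC-like over cDC2-like cells. It stood at 39.4 CPM in WT (49 UMIs) and 39.2 CPM in mutant pDC-like cells (41 UMIs) against 0.565 and 0.767 CPM in cDC2-like cells and 4.06 and 3.49 CPM in proliferating cells. At 1500 UMIs per cell the cells that held it were 7 of 114 WT (6.14%, 2.50 to 12.2) and 7 of 128 mutant pDC-like cells (5.47%, 2.23 to 10.9), against 1 of 2970 (0.0337%, up to 0.187) and 6 of 6287 cDC2-like cells (0.0954%, up to 0.208). Unthinned shares were 25.2% and 28.1% in pDC-like cells with medians of 10749 and 7895 UMIs, and 0.331% and 0.419% in cDC2-like cells with medians of 6063 and 6226 UMIs. Insig1 was 4.15 and 2.09 times, Elovl6 4.06 and 4.74 times and Fdps 2.99 and 3.12 times the cDC2-like level in the WT and mutant libraries. Scd1 had no UMI in pDC-like cells of either library.

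Between the genotypes, pDC-like cells had a log2 ratio of −0.10 (−0.22 to 0.01) for the summed genes. Of 25 members with at least 10 CPM, 1 was higher and 6 were lower by 0.5, against 11.1% and 11.9% of 8837 genes. Srebf1 was at 20.9 and 6.69 CPM (−1.64, −3.09 to −0.40) on 26 and 7 UMIs, Mvd at 16.1 and 6.69 CPM (−1.27, −2.75 to 0.03) and Sqle at 37.0 and 16.2 CPM (−1.19, −2.08 to −0.36). The highest were Scap, at 56.2 and 80.2 CPM (0.51, 0.04 to 0.99), Acat2 (0.50) and Elovl6 (0.47), the last 2 with intervals that held 0. Monocyte-like cells were few, and their summed genes were at 624 and 505 CPM (−0.31, −0.50 to −0.11). In them 1 of 18 members was higher by 0.5 (Elovl6, 0.82, on 9 and 19 UMIs) and 8 were lower, against 15.2% and 16.3% of 8722 genes, with the lowest in Idi1 (−1.92, 19 and 6 UMIs), Stard4 (−1.58, 15 and 6 UMIs) and Hmgcs1 (−1.26, 36 and 18 UMIs). The class itself differed between the libraries, with monocyte markers at 5707 and 4032 CPM, markers of Ccr2+ cDC2 at 4551 and 3327 CPM and proliferation markers at 196 and 498 CPM, and their part in these ratios was not tested. The next highest there, Srebf2 (0.43) and Sc5d (0.12), had intervals that held 0. In both classes a member that reached 10 CPM in 1 library alone could count only as higher in that library. Among such members were Srebf1 and Mvd in pDC-like cells and Idi1 and Stard4 in monocyte-like cells. The counts of both classes are therefore a description.

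**Figure D5:**
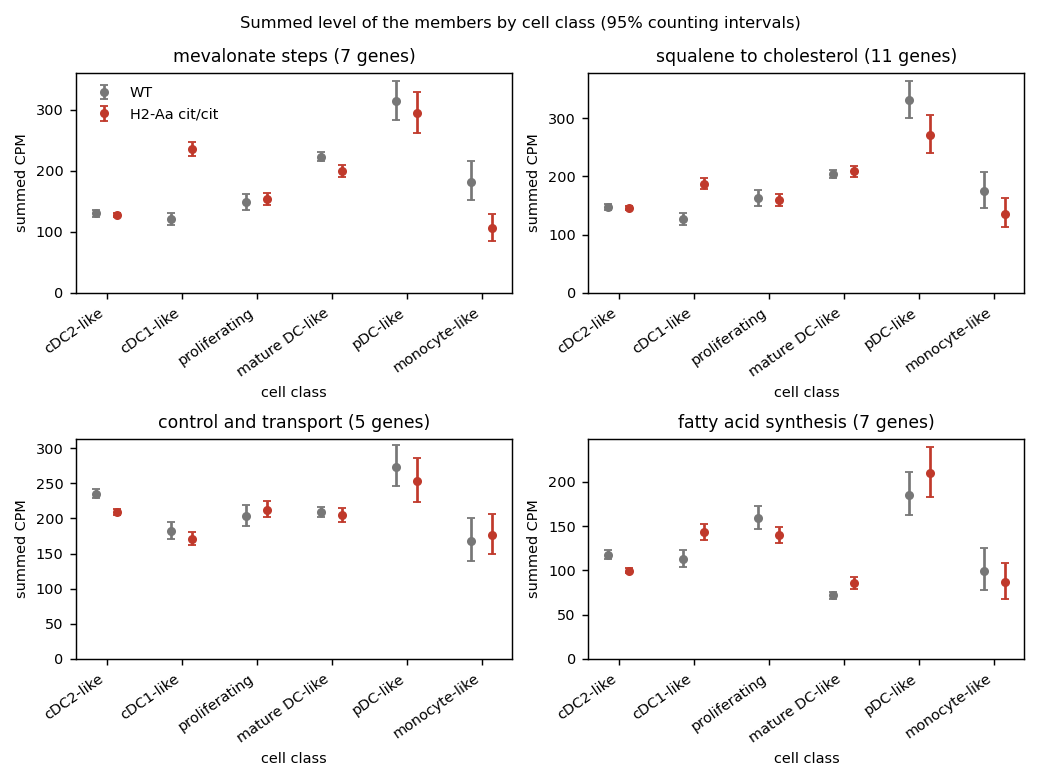
Summed CPM of the mevalonate (7 genes), squalene to cholesterol (11), control and transport (5) and fatty acid genes (7) in 6 cell classes, with points for the WT (grey) and H2-Aa cit/cit (red) libraries and 95% counting intervals. In cDC1-like cells the mevalonate genes are at 121 and 236 CPM, and pDC-like cells have the highest level in each panel, 314 and 294 CPM for the mevalonate genes.

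A list of 27 other lipid synthesis genes and one of 15 liver X receptor targets and genes of sterol export or storage were set beside the 30 genes. In cDC1-like cells the other lipid genes summed to 1002 CPM in WT and 935 CPM in mutant cells (−0.10, −0.15 to −0.05), with 3 higher and 2 lower by 0.5 of 19 with at least 10 CPM, where 13% and 11.6% of all genes in that class passed. The export and storage list was at 1045 and 1035 CPM (−0.01, −0.06 to 0.04), with 1 higher and 2 lower of 11 beside the same shares of all genes. Neither sum was higher in mutant cells. Within the lists, Abcg1, a sterol exporter, was at 66.7 and 19.4 CPM (−1.78, −2.07 to −1.50) in cDC1-like cells and at 139 and 62.4 CPM (−1.16, −1.21 to −1.10) over all cells. Acss2, which makes acetyl-CoA from acetate, was at 19.0 and 7.55 CPM (−1.34) and at 15.0 and 9.43 CPM (−0.67). Lipa, lysosomal acid lipase, was at 117 and 176 CPM (0.60) and at 77.5 and 99.4 CPM (0.36).

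The other genes named by the same rule over all cells differed by less than Abcg1 and Acss2. In the lipid synthesis list Mecr had a log2 ratio of 0.49, Tecr of 0.32 and Elovl1 of 0.27, and Mbtps2 and Pcyt2 of −0.12 and −0.11. In the export and storage list Nr1h2, a liver X receptor gene, had 0.20 and Soat1, which esterifies cholesterol for storage, 0.17, and Mylip and Abca7 had −0.42 and −0.33. Over all cells these lists had sums of 758 and 798 CPM (0.07) and of 961 and 896 CPM (−0.10).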

How the data were processed

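The authors sequenced 10x 3′ libraries and, per the labels, processed them with Cell Ranger 5.0.1 on mm10; the gene annotation is not given in the sources used here. Each deposited matrix, 1 per library and already filtered for cells, holds raw UMI counts, and every cell in it was used. Whether doublets were removed before deposit is not given in the sources used here, and no doublet caller was run. Mixed cells (76 WT and 83 H2-Aa cit/cit) were left out of the classes. So were 1437 and 2071 cells that passed no gate and 168 and 137 cells of other lineages. A mixed cell passed at least 2 gates among pDC, monocyte and other lineages, or 1 of these with the cDC1 or mature DC gate. A cell that passed the cDC1 gate was also mixed if it had at least 6 cDC2 markers. With fewer it was kept, even where it passed the cDC2 gate.

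A cell entered a class when it had a UMI for a set number of that class's markers: 5 of 12 for cDC1, 3 of 12 for cDC2, 5 of 14 for mature DC, 4 of 12 for proliferating, 6 of 12 for pDC and 6 of 10 for monocytes. Gates were applied in the order other lineages, mature DC, proliferating, cDC1, cDC2. These numbers were set after the spread of marker counts was seen, and the members, lists and tests were chosen with earlier results of these data known. UMI counts were summed per class and library and divided by the class's UMI total (CPM). Ratios carry exact conditional binomial intervals, levels exact Poisson intervals and shares Clopper-Pearson intervals, all at 95%, and all cover counting error only. The interval of a difference between ratios used the summed variances of the counts. No p-value was computed, since each genotype had 1 library. Counts and medians took genes that reached 10 CPM in 1 library or both, and a log2 ratio of 0.5 counted as past the limit. In every class, a gene that reached 10 CPM in 1 library alone could count only as higher in that library. The ratio code was tested on simulated data.

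Members named with values were the 5 highest and 5 lowest ratios in all cells and cDC2-like cells and the 3 highest and 3 lowest in other classes; all other values were added so that every member is accounted for, or were chosen after they were seen, as were the promoters printed and Derl3, Xbp1 and Apol7c. Promoter windows came from RefSeq on GRCm38.p6 and gene overlaps from the GENCODE annotation of GRCm38. Python 3.11.15, numpy 2.4.6, scipy 1.17.1, pandas 2.3.3 and matplotlib 3.10.9 were used. The alternatives were other scalings, cell weights, class mix, cell filters, thinned depth, gates, level minimum and fold limit.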

Additional observations from a re-analysis of the deposited data

Results flagged for a closer look

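In all, 3 results went in opposite directions in 2 cell classes, with counting intervals on opposite sides of 0, and the differences between the classes were not tested because each genotype had 1 library. Hmgcs1 had a log2 ratio of H2-Aa cit/cit over WT of 0.57 in cDC1-like and −0.35 in cDC2-like cells. Sqle had 0.71 in cDC1-like and −0.48 in cDC2-like cells, but the value in cDC1-like cells rests on 32 and 80 UMIs and was −0.52, on 2 and 1 UMIs, when each cell was thinned to 1500 UMIs before it was gated. The 30 genes summed had 0.44 in cDC1-like and −0.11 in cDC2-like cells.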

How the results depend on the processing

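No paired analysis was possible because each genotype had 1 library, and no replicate could be left out for the same reason. In cDC1-like cells the log2 ratio of the summed genes stayed above 0 under all 11 alternatives run. It was 0.53 as a mean over cells, 0.81 with cells thinned to 1500 UMIs before gating, 0.34 with at most 1 mature DC marker and 0.29 without Fdps. Under the others it was inside its counting interval, 0.37 to 0.51. The checks with at most 1 mature DC marker and without Fdps were chosen after seeing the data. Those with at least 8 cDC1 markers and with 5000 to 15000 UMIs were not planned in advance either. The median (0.43) was 0.19 with at most 1 mature DC marker and 0.89 with thinned cells, of which 221 WT and 159 H2-Aa cit/cit cells passed the gate. In all cells the sum was −0.021 as a mean over cells, −0.015 with the WT class mix and −0.045 thinned, and the median was 0.031 with the WT class mix and 0.028 thinned. In cDC2-like cells the sum was −0.049 with median ratio scaling, −0.065 as a mean over cells and −0.0052 thinned, and the median was 0.19 thinned and −0.36 at a minimum of 50 CPM. In mature DC-like cells the sum was 0.039 as a mean over cells and 0.15 in cells with no cDC1 marker, and the median was −0.18 at 50 CPM. Idi1 in mature DC-like cells went from −0.64 to 0.064 in cells with no cDC1 marker, a choice made after seeing the data.

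Counts of members past the log2 limit of 0.5 are small and moved often. The number of members that could be counted also changed with the minimum, the cell filters and the thinning. Among the alternatives, the share of all genes was computed for the limit of 0.25 alone, so the other counts have no such share beside them. Those higher and lower in all cells (2 and 2) became 1 and 1 as a mean over cells and when thinned, 0 and 0 at 50 CPM and 5 and 5 at a limit of 0.25 (20.1% and 18.9% of all genes passed it); those lower became 1 with median ratio scaling, the WT class mix or no cell over 10% mitochondrial UMIs, and 4 with no minimum. In cDC2-like cells (0 and 0) those higher became 2 as a mean over cells and with no minimum and 5 thinned, those lower 2 without cells under 10% ribosomal share, 1 thinned and 1 with no minimum, and at 0.25 they were 2 and 6 (11.6% and 16.9% of all genes). In cDC1-like cells (8 and 0) those higher became 2 at 50 CPM, a level that only Fdps, Ebp and Srebf2 reached there. They became 13 at 0.25 (26% of all genes, 26.6% for lower). Those lower became 1 thinned, at 0.25 and from 5000 to 15000 UMIs and 2 with no minimum. In mature DC-like cells (0 and 1) those higher became 1 as a mean over cells, without cells under 10% ribosomal share and with no cDC1 marker, 5 thinned and 3 with no minimum, those lower 2 without cells under 10% ribosomal share and 3 with no minimum, and at 0.25 they were 4 and 4 (30.9% and 14.8%). In proliferating cells (1 and 1) those higher and lower became 3 and 2 as a mean over cells, 2 and 2 without cells under 10% ribosomal share, 5 and 5 thinned, 0 and 3 with stricter gates, 0 and 0 at 50 CPM and 4 and 6 at 0.25 (16.6% and 16.6%), and those lower 4 with no minimum. The cause of these moves was not tested. Of 299 values of members named by the rule under the alternatives, 258 stayed inside the main counting interval, 40 left it and 1 changed sign from a call, Idi1 as given. Of the 11 members with an interval on 1 side of 0 in cDC1-like cells, most of which the rule did not name, 2 changed sign, both with thinned cells. They were Sqle (−0.52, on 2 and 1 UMIs) and Insig1 (−0.11, on 3 and 2 UMIs), too few UMIs to decide a sign. Depth limits members under 10 CPM and all values in pDC-like and monocyte-like cells, where 1 UMI is near 1 CPM.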
